A study of Mus musculus with 12 samples.

Results

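The cytochrome P450 genes of the Cyp2a, Cyp2b and Cyp3a families were followed in mouse liver RNA after loss of LRH-1, the nuclear receptor encoded by Nr5a2. The 10 genes described are Cyp2a4, Cyp2a5, Cyp2b9, Cyp2b10, Cyp2b13, Cyp3a11, Cyp3a13, Cyp3a25, Cyp3a41a and Cyp3a44, found by symbol among the 24062 genes counted. They were chosen as targets of the receptors CAR and PXR, though with earlier results of these data known. All 12 libraries came from livers of male mice aged 14 weeks, on a mixed 129SvEV-C57BL/6 background, that carried floxed Nr5a2. The groups were HFD knockouts (AAV8-Cre, high-fat diet D12492 for 6 weeks, n = 2), HFD controls (same diet, n = 4), SD knockouts (AAV8-Cre, standard diet, n = 3) and SD controls (n = 3). Per the series' design text, control mice received AAV8-eGFP. Cre was delivered by a virus to adult mice, and the promoter that drives it is not given in the sources used here.

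Cytochrome P450 enzymes of these families sit in the endoplasmic reticulum of hepatocytes and oxidize drugs, steroids and bile acids. Their genes are switched on by CAR (Nr1i3) and PXR (Nr1i2), nuclear receptors that sense foreign compounds and bile acids and bind, as partners of RXR, to repeats of a short half-site of the form AGNTCA. Several members, among them Cyp2a4, Cyp2b9, Cyp2b13, Cyp3a41a and Cyp3a44, are known in mice for higher expression in female than in male liver, a pattern set by growth hormone. LRH-1 itself is known for its part in bile acid and lipid metabolism of the liver.

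The sequences before the gene starts are shown for the Cyp2a and Cyp2b members and for the neighbours Cyp3a11 and Cyp3a25. Genes of a family share promoter letters to very different degrees. The windows of Cyp3a13, Cyp3a41a and Cyp3a44 are not shown. Each line gives the 250 bases before the RefSeq start of the gene (build GRCm38.p6), on the gene's strand, with every AGNTCA half-site on either strand in capitals.
Cyp2b9 (chr7:26173159-26173408, + strand): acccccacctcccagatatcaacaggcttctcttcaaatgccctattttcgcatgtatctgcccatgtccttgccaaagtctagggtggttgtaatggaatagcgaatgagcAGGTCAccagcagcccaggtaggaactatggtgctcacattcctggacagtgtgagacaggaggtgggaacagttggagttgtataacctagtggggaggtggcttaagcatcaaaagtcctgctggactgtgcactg
Cyp2b13 (chr7:26061245-26061494, + strand): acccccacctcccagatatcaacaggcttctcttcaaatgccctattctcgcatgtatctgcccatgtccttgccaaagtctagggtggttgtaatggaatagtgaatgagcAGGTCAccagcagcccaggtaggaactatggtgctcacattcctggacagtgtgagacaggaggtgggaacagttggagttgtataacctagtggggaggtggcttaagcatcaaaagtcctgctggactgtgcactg
Cyp2b10 (chr7:25897408-25897657, + strand): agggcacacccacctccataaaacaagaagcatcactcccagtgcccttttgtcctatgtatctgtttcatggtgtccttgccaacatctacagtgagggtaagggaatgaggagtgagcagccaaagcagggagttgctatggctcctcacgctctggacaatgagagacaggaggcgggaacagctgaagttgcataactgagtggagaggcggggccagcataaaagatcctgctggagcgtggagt
Cyp2a4 (chr7:26306942-26307191, + strand): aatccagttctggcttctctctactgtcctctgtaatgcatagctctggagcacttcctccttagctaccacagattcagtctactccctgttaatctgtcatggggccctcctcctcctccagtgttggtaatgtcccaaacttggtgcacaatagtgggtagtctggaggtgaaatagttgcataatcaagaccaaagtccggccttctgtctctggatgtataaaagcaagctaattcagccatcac
Cyp2a5 (chr7:26835089-26835338, + strand): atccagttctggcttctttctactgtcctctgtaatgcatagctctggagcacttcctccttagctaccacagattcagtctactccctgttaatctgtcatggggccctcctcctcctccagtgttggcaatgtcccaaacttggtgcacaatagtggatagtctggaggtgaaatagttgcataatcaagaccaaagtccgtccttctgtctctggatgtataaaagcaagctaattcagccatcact
Cyp3a11 (chr5:145879855-145880104, - strand): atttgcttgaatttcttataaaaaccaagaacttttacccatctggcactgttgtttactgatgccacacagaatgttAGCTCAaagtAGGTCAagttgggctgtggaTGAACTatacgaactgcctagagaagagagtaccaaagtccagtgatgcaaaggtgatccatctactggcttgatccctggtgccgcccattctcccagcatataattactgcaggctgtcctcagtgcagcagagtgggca
Cyp3a25 (chr5:146009619-146009868, - strand): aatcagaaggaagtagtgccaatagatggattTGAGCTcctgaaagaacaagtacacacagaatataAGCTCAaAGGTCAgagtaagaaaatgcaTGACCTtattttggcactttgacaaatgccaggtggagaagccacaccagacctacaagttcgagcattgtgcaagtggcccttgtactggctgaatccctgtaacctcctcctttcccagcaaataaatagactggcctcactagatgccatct

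Cyp2b9 and Cyp2b13 shared 99.2% of these letters, and Cyp2b10, next to Cyp2b13 in the RefSeq gene order, shared 70% with either. The Cyp2a4 and Cyp2a5 windows were 97.6% identical. Cyp2b9 and Cyp2b13 each held 1 AGGTCA, 138 bases before the start, and the Cyp2b10, Cyp2a4 and Cyp2a5 windows held no AGNTCA. Half-sites are common: AGGTCA occurred in 13.8% and AGNTCA in 41.2% of the 27025 RefSeq promoter windows of this length.

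Cyp3a11 and Cyp3a25, which are neighbours, held half-sites in different spacings. The Cyp3a11 window had AGCTCAaagtAGGTCA, a direct repeat of AGNTCA with 4 bases between the half-sites (on either strand, found in 0.111% of windows), beginning 172 bases before the start. The Cyp3a25 window had AGCTCAaAGGTCA, a direct repeat with 1 base between them (0.167% of windows), beginning 183 bases before the start. This repeat was not particular to Cyp3a25: the windows of Cyp3a57 and Cyp3a59 held the same letters, beginning 181 and 184 bases before the start. No member's window held the LRH-1 motif as CAAGGTCA (1.31% of windows) or CAAGGCCA (1.98%), or the STAT motif TTCNNNGAA (7.18%). These are matches of letters, not measured binding, and sites further away were not searched.

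Total counts were 7463792 to 10875478 in the HFD libraries and 2371167 to 3404570 in the SD libraries. CPM here are counts scaled to the normalised library size. The summed level of 8 hepatocyte markers was 155248 and 196998 CPM in HFD knockouts against 135994 to 145297 CPM in HFD controls. On SD it was 143452 to 197858 CPM in knockouts against 148714 to 181164 CPM in controls. On HFD both knockout sums thus lay above every control, with 1 of the 8 markers called higher and a list median log2 fold change of -0.20. The 3 kidney markers were at 0 in each library. Counts over the whole Nr5a2 gene were not lower in knockouts: 69.1 and 84.5 CPM in HFD knockouts against 64.3 to 77.0 CPM in HFD controls, and 94.7 to 100.1 CPM in SD knockouts against 74.8 to 85.8 CPM in SD controls. Which exons were floxed is not given in the labels, and counts over the whole gene do not check their deletion. Nr0b2, which encodes SHP and is a known LRH-1 target, had 0 and 0.335 CPM in HFD knockouts against 6.26 to 13.3 CPM in HFD controls. It had no count in the 3 SD knockouts, against 10.5 to 15.3 CPM in SD controls. The sum of 8 stellate cell markers was 386 to 465 CPM in HFD knockouts against 260 to 393 CPM in HFD controls, and 443 to 519 CPM in SD knockouts against 335 to 398 CPM in SD controls, with no marker at 0. None of these 8 markers passed the test on either diet, and 3 rose averaged over the diets, with a list median log2 fold change of 0.47. The sum of 6 cholangiocyte markers was 65.0 to 197 CPM in SD knockouts against 51.4 to 53.9 CPM in SD controls. On HFD it was 88.6 and 100 CPM in knockouts against 27.6 to 106 CPM in controls. Of these markers 3 were tested, and none passed on either diet. The sum of 4 adipocyte markers was 36.8 and 69.2 CPM in HFD knockouts against 0.343 to 3.09 CPM in HFD controls, with Adipoq and Lep at 0 in every library and Plin1 at 0 in all but 1 HFD knockout. In SD knockouts this sum was 0 to 11.7 CPM, against 0 to 0.402 CPM in SD controls. Cfd, the 1 adipocyte marker that was tested, rose in HFD knockouts (log2 fold change 5.40, SE 0.60, adjusted p = 0.000204) and averaged over the diets (5.27, SE 0.82, adjusted p = 0.000795), and did not pass on SD (5.13, SE 1.82, adjusted p = 0.140). Their part in the results was not tested. In whole liver, fewer cells of a type and less RNA per cell cannot be told apart.

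Levels of different genes are compared here per kilobase of exon. In HFD knockouts Cyp3a11 led with 551 CPM per kb (361 and 741), followed by Cyp2a5 with 283 (250 and 315), Cyp2b9 with 268 (221 and 315) and Cyp3a25 with 135 (109 and 162). In HFD controls the mean levels were 283 ± 37.4 CPM per kb for Cyp3a25, 224 ± 102 for Cyp3a11, 185 ± 41.4 for Cyp2a5, 120 ± 16.0 for Cyp3a13 and 73.4 ± 54.9 for Cyp2b9 (SD, n = 4). In SD controls Cyp3a11 reached 1693 ± 424 CPM per kb, Cyp3a25 448 ± 41.4, Cyp2a5 203 ± 24.9 and Cyp3a13 138 ± 19.6 (SD, n = 3), and these 4 ranges did not overlap. Cyp2b10 with 7.61 ± 6.54 and Cyp2b9 with 4.04 ± 2.83 CPM per kb overlapped each other far below them in SD controls. In HFD knockouts Cyp2a5 and Cyp2b9 overlapped. In HFD controls Cyp3a11 (75.5 to 310) overlapped each of the other 4 genes and Cyp3a13 overlapped Cyp2b9, while Cyp3a25 (252 to 332) and Cyp2a5 (145 to 222) did not overlap.

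Cyp3a41a had no count in any library and Cyp3a44 had 0 to 2 counts per library, so 8 of the 10 genes passed the filter on low counts and were tested. Both are female-predominant P450 genes. A count of 0 allows up to 0.186 CPM in HFD knockouts, 0.0845 in HFD controls, 0.358 in SD knockouts and 0.360 in SD controls (3 counts over the group, counting error only). Of the 50-base windows of the Cyp3a41a transcript, 98.6% also occurred in another gene, and 93.7% in its neighbour Cyp3a41b, so its 0 is uncertain where such reads were not assigned. Summed over the group, Cyp3a44 had 2 counts in HFD knockouts and 4 in HFD controls (ratio 1.10, 95% exact interval 0.0994 to 7.67), and 3 counts in SD knockouts and 4 in SD controls (ratio 0.746, 0.109 to 4.41).

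Loss of LRH-1 went with lower Cyp3a25 on both diets and lower Cyp3a13 on standard diet. The Cyp2b genes, Cyp2a5 and Cyp3a11 lay higher in both HFD knockouts than in every HFD control, but none of them passed the adjusted test there. On HFD 1 tested member was called higher and 1 lower in knockouts, where 2.7% of all 12015 tested genes were called (1.04% higher and 1.66% lower). On SD none was called higher and 2 lower, where 4.38% of all genes were called (1.44% higher and 2.94% lower). The median log2 fold change of the 8 tested members was 1.58 on HFD and 0.53 on SD, beside -0.0074 and 0 for all tested genes.

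**Figure D1:**
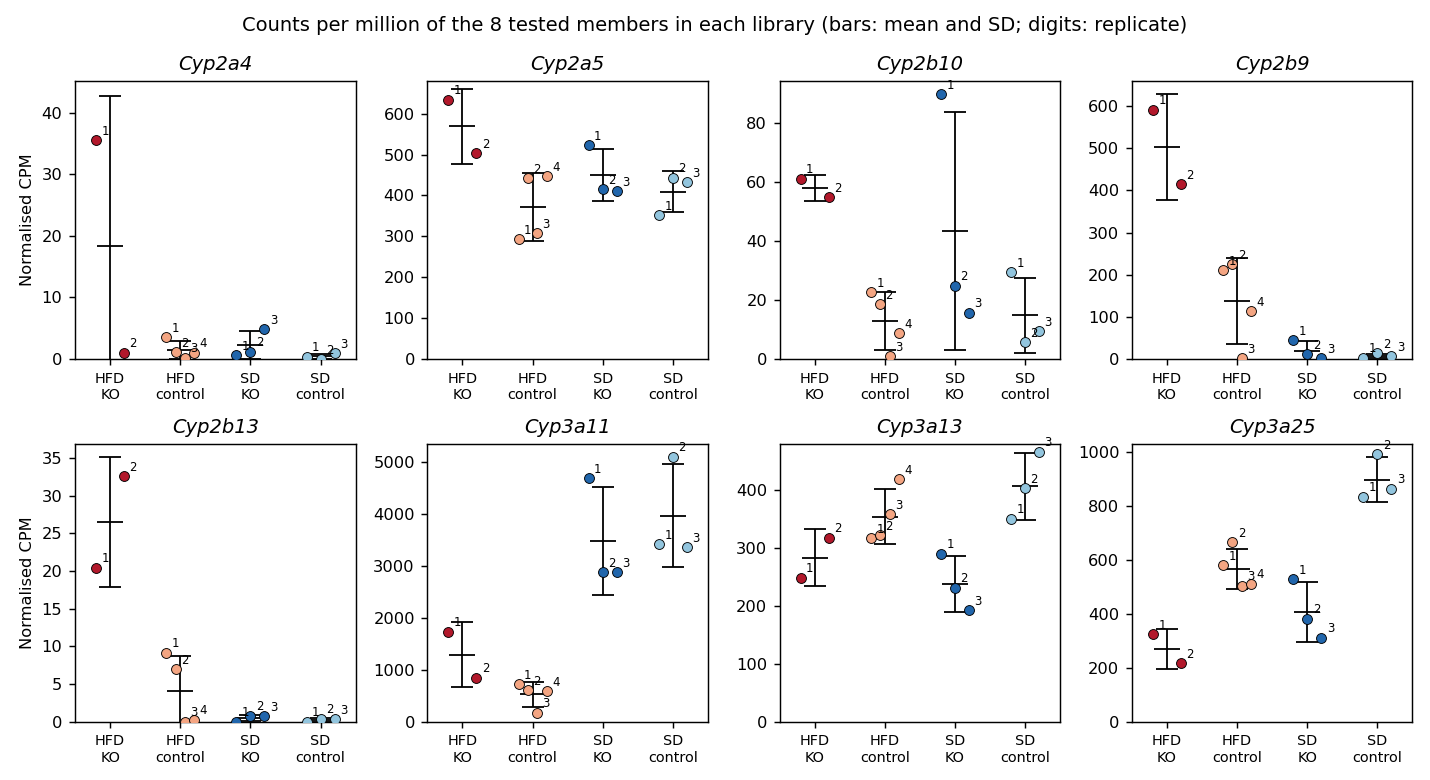
Normalised CPM of the 8 tested members in each library (y axes, linear from 0), by group (x axes: HFD knockout, HFD control, SD knockout, SD control). Points are libraries with their replicate number, and bars are the mean and SD. Cyp3a25 is lower in the knockouts of each diet, Cyp2b9 is high in HFD knockouts (591 and 414 CPM), and Cyp2a4 is high in 1 HFD knockout only (35.6 CPM).

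Cyp3a25, a liver Cyp3a enzyme, had 323 and 217 CPM in HFD knockouts, against 581, 665, 504 and 511 CPM in HFD controls. On SD it had 528, 381 and 310 CPM in knockouts, against 833, 990 and 863 CPM in controls. On both diets every knockout lay below every control of that diet. It fell on HFD with a log2 fold change of -1.07 (SE 0.20, edgeR adjusted p = 0.0104) and on SD with -1.14 (SE 0.19, adjusted p = 0.00253), which is 2.09-fold and 2.20-fold lower. The fall on SD passed in all 19 alternatives, and the one on HFD in 18 of 19: without HFD knockout 2 it was -0.80 (adjusted p = 0.121). Of the 50-base windows of its transcript, 25% also occur in Cyp3a59, which had 13.2 and 7.81 CPM in HFD knockouts against 8.97 to 25 CPM in HFD controls.

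Cyp3a13, the Cyp3a gene that lies apart from the cluster and shares no 50-base window with another gene, had 290, 232 and 193 CPM in SD knockouts, against 351, 403 and 466 CPM in SD controls. All 3 SD knockouts lay below all 3 SD controls. It fell by 0.77 on the log2 scale (SE 0.16, edgeR adjusted p = 0.0128). Each of 3 libraries decided this call: the adjusted p was 0.0766 when SD control 3 was left out, 0.0607 when SD knockout 2 was and 0.0773 when SD knockout 3 was. In HFD knockouts it had 249 and 318 CPM, against 317, 322, 358 and 419 CPM in HFD controls, and the groups overlapped. The log2 fold change on HFD was -0.32 (SE 0.17, adjusted p = 0.435).

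Cyp2b10 is the gene most used as a readout of CAR activity, since phenobarbital-like inducers raise it. It had 61.0 and 54.8 CPM in HFD knockouts, against 22.7, 18.6, 1.03 and 8.71 CPM in HFD controls. Both HFD knockouts exceeded all HFD controls, and the controls themselves spread over a wide range. The log2 fold change was 2.16 (SE 0.67, adjusted p = 0.115), and it passed without HFD control 1 (2.63, adjusted p = 0.0476) and without the filter on low counts. On SD it had 89.7, 24.8 and 15.7 CPM in knockouts, against 29.3, 5.63 and 9.46 CPM in controls, so the groups overlapped (log2 fold change 1.58, SE 0.79, adjusted p = 0.321).

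Cyp2b9, a female-predominant gene, had 591 and 414 CPM in HFD knockouts, against 211, 224, 2.29 and 113 CPM in HFD controls. Every HFD knockout was above every HFD control, while HFD control 3 stood at the level of the SD libraries. The log2 fold change was 1.87 (SE 0.84, adjusted p = 0.327). On SD the gene had 45.0, 10.8 and 1.39 CPM in knockouts, against 2.73, 13.3 and 6.71 CPM in controls, with overlap and a log2 fold change of 1.38 (SE 1.34, adjusted p = 0.670). Without SD knockout 1 that value was -0.36, so its direction rested on this library.

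Cyp2b13, whose promoter window is nearly that of Cyp2b9, had 20.4 and 32.6 CPM in HFD knockouts, against 9.17, 6.95, 0 and 0.260 CPM in HFD controls. These groups did not overlap either, and the controls fell into 2 that had the gene and 2 that almost lacked it. The log2 fold change was 2.64 (SE 0.69, adjusted p = 0.0573). It passed without HFD control 1 (3.48, adjusted p = 0.0103), with all libraries thinned to the smallest (2.85, adjusted p = 0.0226) and without the filter on low counts. On SD it had 4 counts in the 3 knockouts together and 2 in the 3 controls, a ratio of 1.99 with a 95% exact interval of 0.285 to 22.0. Of its transcript's 50-base windows, 27.3% occur in another gene.

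Cyp2a5, the main coumarin hydroxylase of mouse liver, had 634 and 504 CPM in HFD knockouts, against 293, 442, 308 and 447 CPM in HFD controls. Both HFD knockouts were above the highest HFD control. The log2 fold change was 0.61 (SE 0.18, edgeR adjusted p = 0.0929), and it passed with DESeq2 (adjusted p = 0.0440) and without the filter on low counts. On SD the 523, 415 and 410 CPM in knockouts overlapped the 351, 443 and 432 CPM in controls (log2 fold change 0.13, SE 0.17, adjusted p = 0.765).

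Cyp2a4, a steroid hydroxylase whose transcript shares 36.1% of its 50-base windows with Cyp2a5, had 35.6 and 1.00 CPM in HFD knockouts, against 3.54, 1.12, 0.229 and 1.04 CPM in HFD controls. HFD knockout 1 stood alone, with 256 counts against 9 in HFD knockout 2, which lay within the range of the controls. The gene was called higher (log2 fold change 3.50, SE 0.86, adjusted p = 0.0404), and without HFD knockout 1 the value was -0.61 (adjusted p = 0.946). The call held in 7 of 19 alternatives and ended with DESeq2 (adjusted p = 0.161). It ended too without any of the SD controls, SD knockout 2 or HFD controls 2, 3 or 4, with adjusted p-values of 0.0557 to 0.119. Summed with Cyp2a5, its log2 fold change was 0.65 (adjusted p = 0.0735). On SD it had 0.667, 1.20 and 4.88 CPM in knockouts, against 0.391, 0 and 0.916 CPM in controls (log2 fold change 2.20, SE 1.99, adjusted p = 0.641).

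Cyp3a11, a classical PXR target, had the highest mean of the Cyp3a genes in every group but HFD controls, where Cyp3a25 did. It had 1738 and 847 CPM in HFD knockouts, against 727, 610, 177 and 588 CPM in HFD controls. The lower HFD knockout was just above the highest HFD control. The log2 fold change was 1.30 (SE 0.39, adjusted p = 0.107). It was 0.69 without HFD knockout 1, and it passed without the filter on low counts (1.29, adjusted p = 0.00379). On SD it had 4692, 2879 and 2884 CPM in knockouts, against 3420, 5114 and 3370 CPM in controls. These overlapped, with a log2 fold change of -0.19 (SE 0.39, adjusted p = 0.869), and the sign turned without SD control 2 (0.04). The difference between the HFD and SD effects was 1.49 (SE 0.56, unadjusted p = 0.0172, adjusted p = 0.568), and it was 0.88 without HFD knockout 1.

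On HFD the knockouts of 5 of the 8 tested members lay wholly above the controls, against 10.3% of all tested genes. The 5 genes were Cyp2a5, Cyp2b9, Cyp2b10, Cyp2b13 and Cyp3a11. In either direction 7 of 8 had an unadjusted p under 0.05, against 14% of all genes. The 7 were these 5, Cyp2a4, whose rise rested on HFD knockout 1, and Cyp3a25, which fell. The 5 are not separate observations, since they share libraries. Within the HFD libraries Pearson's r was 0.97 for Cyp2b9 with Cyp2b10, 0.94 with Cyp3a11 and 0.65 with Cyp2a5. On SD no member lay wholly above, against 10.3% of all tested genes, and 2 lay wholly below, against 12.3%. All these values on HFD rest on 2 knockout libraries. Without the filter on low counts 6 of 9 members and 518 of 17849 genes passed on HFD. With the filter 2 of 8 members and 325 of 12015 genes did.

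**Figure D2:**
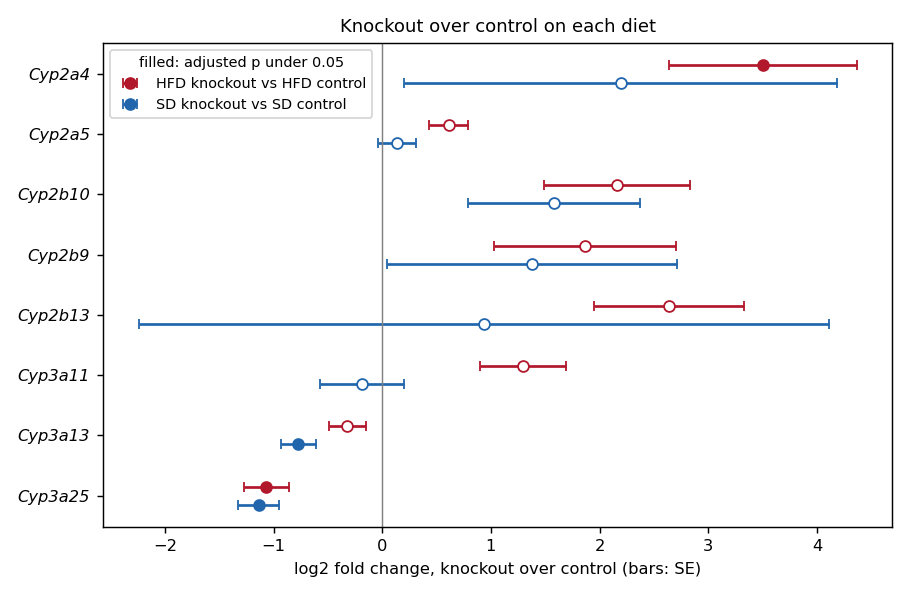
Log2 fold change, knockout over control, of the 8 tested members on HFD (red, upper point) and SD (blue, lower point). Bars are the SE and filled points have an adjusted p under 0.05. Cyp3a25 lies near -1 on both diets (-1.07 on HFD, -1.14 on SD), and Cyp3a11 is at 1.30 on HFD and -0.19 on SD.

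Averaged over the diets, 3 members passed in knockouts against controls, 1 of them higher and 2 lower, where 8.36% of all tested genes were called (3% higher and 5.36% lower). Cyp2b10 rose 3.66-fold (log2 fold change 1.87, SE 0.52, edgeR adjusted p = 0.0365). Cyp3a25 fell 2.15-fold (-1.10, SE 0.14, adjusted p = 0.000127) and Cyp3a13 fell 1.46-fold (-0.55, SE 0.12, adjusted p = 0.00864). The Cyp3a25 call held in all 18 alternatives. The Cyp3a13 call ended without HFD knockout 1 (adjusted p = 0.0601). The Cyp2b10 call ended with DESeq2 (adjusted p = 0.118) and without any of SD control 2, SD control 3, SD knockout 1, HFD control 4, HFD knockout 1 or HFD knockout 2. Its adjusted p was then 0.0674 to 0.157, and the log2 fold change was lowest, 1.31, without SD knockout 1. Cyp2a4 did not pass (2.85, SE 1.05, adjusted p = 0.119). It did with all libraries thinned to the smallest (3.43, adjusted p = 0.0321) and without the filter on low counts (2.84, adjusted p = 0.0129). Its value was 3.34 without HFD knockout 2 and 0.79 without HFD knockout 1.

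Whether the knockout effect differed between diets was tested as the HFD effect minus the SD effect. No member passed, and edgeR called 0% of all genes, with 911 genes (7.58%) at an unadjusted p under 0.05 and 33 called by DESeq2. Among the members, Cyp3a11 was the 1 gene with an unadjusted p under 0.05. For Cyp3a25 the difference was 0.07 (SE 0.27, adjusted p = 0.987), for Cyp3a13 0.45 (SE 0.23, adjusted p = 0.706) and for Cyp2b10 0.58 (SE 1.06, adjusted p = 0.952).

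On high-fat diet members of the families went in opposite directions: Cyp2b9 was far higher and Cyp3a11 far lower on high-fat diet in each genotype. In knockouts, HFD against SD, 2 members were called higher and 2 lower, where 26.6% of all tested genes were called (14.9% higher and 11.7% lower). In controls 1 was called higher and 2 lower, where 30.1% of all genes were called (16.5% higher and 13.6% lower). HFD and SD libraries differ in depth without overlap, so diet and depth cannot be told apart by group. With every library thinned to 2371167 counts, each of these calls but 1, that of Cyp3a25 in knockouts, was still made.

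Cyp2b9 averaged 503 ± 125 CPM in HFD knockouts (SD, n = 2) and 19.1 ± 22.9 CPM in SD knockouts (SD, n = 3), a log2 fold change of 4.69 (SE 1.08, edgeR adjusted p = 0.00452). In controls it averaged 138 ± 103 CPM on HFD (SD, n = 4) and 7.57 ± 5.32 CPM on SD (SD, n = 3), a log2 fold change of 4.20 (SE 1.13, adjusted p = 0.0103). The other 3 HFD controls were above all SD controls, and HFD control 3, at 2.29 CPM, was below them. Cyp2b13 rose in knockouts, with 439 counts in the 2 HFD libraries and 4 in the 3 SD libraries (log2 fold change 5.73, SE 1.30, adjusted p = 0.00411). In controls it had 159 counts on HFD (101, 56, 0 and 2 by library) and 2 on SD. The normalised ratio was 18.6, with a 95% exact interval of 5.08 to 155. That interval covers counting error only and not the spread between libraries. The test, which includes that spread, gave an adjusted p of 0.100. Cyp2b13 passed in controls without HFD control 3 (adjusted p = 0.0213) or HFD control 4 (adjusted p = 0.0424). Cyp2b10, the third gene of the cluster, did not pass in knockouts (log2 fold change 0.40, SE 0.73, adjusted p = 0.729) or in controls (-0.17, SE 0.76, adjusted p = 0.891). Each Cyp2b call by diet held in all 19 alternatives, but its size rested on single SD libraries. In knockouts, leaving out SD knockout 1 gave 6.45 for Cyp2b9 and 5.14 for Cyp2b13, and in controls leaving out SD control 2 gave 4.81 for Cyp2b9.

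Cyp3a11 fell 2.70-fold on HFD in knockouts (log2 fold change -1.43, SE 0.45, adjusted p = 0.0288) and 7.55-fold in controls (-2.92, SE 0.37, adjusted p = 2.42e-05). No HFD library reached the lowest SD library of its genotype. The call in controls held in all 19 alternatives, and the one in knockouts ended with DESeq2 (adjusted p = 0.0509), without SD knockout 1 (-1.13, adjusted p = 0.103) and without HFD knockout 2 (-1.0, adjusted p = 0.220). Without HFD knockout 1 the value in knockouts was -2.03. Cyp3a25 fell in knockouts (-0.59, SE 0.21, adjusted p = 0.0488) and in controls (-0.66, SE 0.17, adjusted p = 0.00774). In knockouts that call held in 8 of 19 alternatives, and without SD knockout 1 or HFD knockout 2 the value was -0.33 in each case. It ended too without SD control 1, 2 or 3, SD knockout 2 or HFD control 1, 3 or 4, with adjusted p-values of 0.0547 to 0.0733. Cyp2a5, Cyp3a13 and Cyp2a4 did not pass by diet in either genotype. For Cyp2a4 in knockouts the log2 fold change was 2.98 (SE 1.09, adjusted p = 0.0557). It was -1.14 without HFD knockout 1, and it passed without HFD knockout 2 (3.96, adjusted p = 0.00140) or HFD control 1 (2.98, adjusted p = 0.0442).

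**Figure D3:**
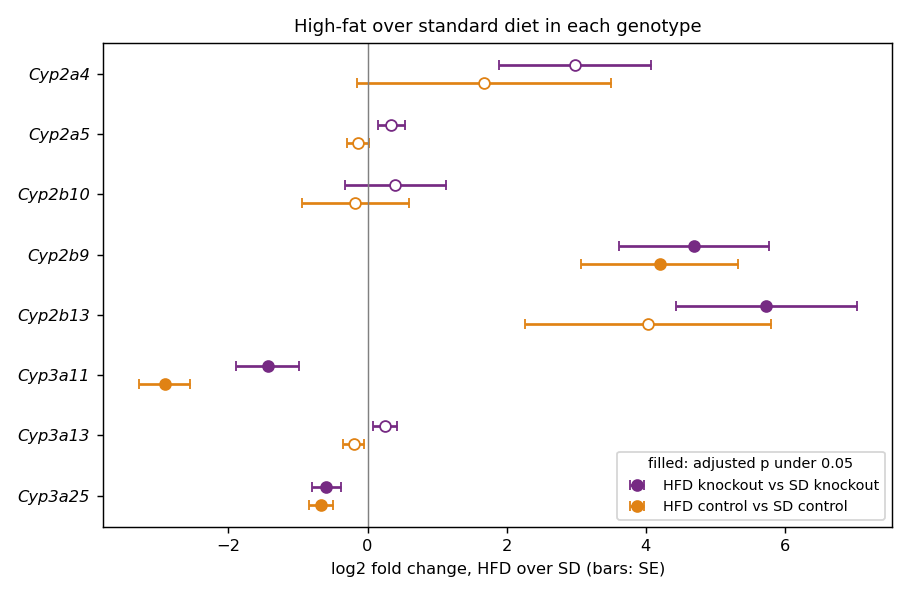
Log2 fold change, HFD over SD, of the 8 tested members in knockouts (purple, upper point) and in controls (orange, lower point). Bars are the SE and filled points have an adjusted p under 0.05. Cyp2b9 lies at 4.69 in knockouts and 4.20 in controls, and Cyp3a11 at -1.43 and -2.92.

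Within a diet, single libraries moved several members at once. HFD control 3 was the lowest HFD library in Cyp2a4, Cyp2b9, Cyp2b10, Cyp2b13 and Cyp3a11, and not in Cyp2a5, Cyp3a13 or Cyp3a25. SD knockout 1 was the highest SD library in Cyp2a5, Cyp2b9 and Cyp2b10. HFD control 3 also had the highest HFD level of Hsd3b5, a male-biased steroid gene, which had 8.62 and 23.1 CPM in HFD knockouts against 27.7, 80.1, 225 and 106 CPM in HFD controls. After the mean of each diet was subtracted from log2 CPM, Pearson's r over the 12 libraries was 0.88 for Cyp2b9 with Cyp3a11, 0.80 for Cyp2b9 with Cyp2b10 and 0.76 for Cyp3a13 with Cyp3a25. Cyp2b9 and Cyp2b10 had an r of 0.97 within the 6 HFD libraries and 0.38 within the 6 SD libraries. These r values describe libraries that share group differences and normalisation.

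**Figure D4:**
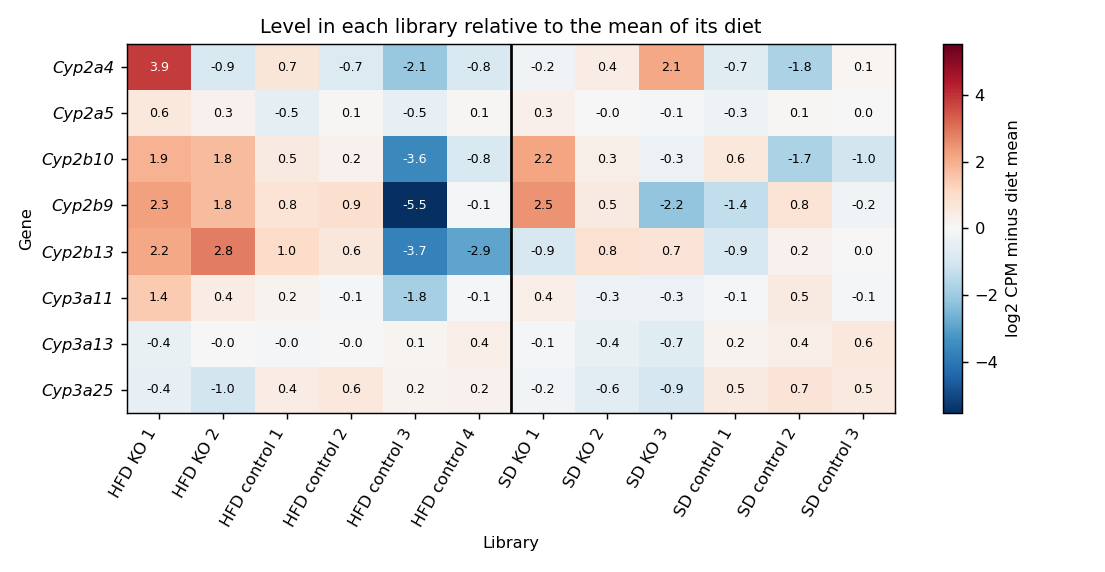
Log2 CPM of each tested member (rows) in each library (columns) minus the mean of that library's diet. Red is above and blue below the diet mean, and the line separates HFD from SD. HFD control 3 is blue for the 3 Cyp2b genes and Cyp3a11, while HFD knockout 1 is red for Cyp2a4.

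By the same measure, the genes most like each member were named. They were Suclg1 for Cyp2a5 (r = 0.93), Acnat2 for Cyp2b9 (0.94), Ces1g for Cyp2b10 (0.92), Alg6 for Cyp2b13 (0.91), Gstt1 for Cyp3a11 (0.94), Gstm7 for Cyp3a13 (0.95) and Fam198a for Cyp3a25 (0.98). Each is the highest r among all tested genes over 12 libraries, a choice that by itself favours high values. Fam198a averaged only 2.54 CPM, and Alg6 had an r of 0.70 with Cyp2b13 within the SD libraries. Cyp2b9 was the third nearest gene to Cyp3a11, with r = 0.88, and Acss3 was the third for both Cyp2b9 (0.92) and Cyp2b10 (0.91). Cyp2a4 was left out by a minimum mean of 5 CPM, which was set for the members only and not for the genes compared with them.

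Of the 8 other genes of the 3 families, 3 were tested, and 2 rose on HFD while 1 rose and 1 fell on SD. Of all tested genes, 1.04% were called higher and 1.66% lower on HFD, and 1.44% higher and 2.94% lower on SD. These shares also stand beside the counts of the lists below. Cyp2a12 had 641 and 637 CPM in HFD knockouts against 394 to 441 CPM in HFD controls, and 633 to 704 CPM in SD knockouts against 388 to 464 CPM in SD controls. It rose on both diets, by 0.61 on HFD (SE 0.10, adjusted p = 0.00484) and by 0.59 on SD (SE 0.10, adjusted p = 0.00352), and on HFD the call ended without HFD knockout 1 (0.61, adjusted p = 0.0599). Cyp2a22, which lies between Cyp2a5 and Cyp2a12, had 184 and 64.9 CPM in HFD knockouts against 23.4 to 41.7 CPM in HFD controls. It rose by 1.91 (SE 0.31, adjusted p = 0.00354), and without HFD knockout 1, the library that was also high in Cyp2a4, the value was 0.98 (adjusted p = 0.200). Cyp3a59 fell on SD (-1.33, SE 0.35, adjusted p = 0.0403). That call ended without any of SD controls 2 and 3, SD knockouts 2 and 3 and HFD controls 2 and 3, with adjusted p-values of 0.0501 to 0.170.

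CAR and PXR were examined as the receptors of these genes. Nr1i3, encoding CAR, had 154 and 107 CPM in HFD knockouts against 116, 139, 108 and 152 CPM in HFD controls, a log2 fold change of 0.02 (SE 0.19, adjusted p = 0.983). On SD it had 76.3, 61.2 and 43.2 CPM in knockouts against 101, 93.6 and 111 CPM in controls, with all knockouts below all controls. It fell by 0.76 (SE 0.20, adjusted p = 0.0396). Leaving out any SD library but SD knockout 1 ended this call, with adjusted p-values of 0.0682 to 0.173. The difference between the diets' effects was 0.78 (SE 0.27, unadjusted p = 0.0121, adjusted p = 0.545). Nr1i2, encoding PXR, had 48.1 and 42.0 CPM in HFD knockouts against 49.4 to 55.5 CPM in HFD controls, and 32 to 39.7 CPM in SD knockouts against 37.5 to 48.0 CPM in SD controls. It passed on neither diet (adjusted p = 0.446 and 0.425). By diet, Nr1i3 rose in knockouts, HFD against SD, by 1.11 (SE 0.21, adjusted p = 0.00105), in all 19 alternatives, and did not pass in controls (0.33, SE 0.18, adjusted p = 0.168). Nr1i2 did not pass in knockouts (0.34, SE 0.14, adjusted p = 0.0828) and rose in controls (0.34, SE 0.12, adjusted p = 0.0372). This call held in 12 of 19 alternatives and ended with DESeq2, with thinning, and without SD control 2 or 3 or HFD control 1, 3 or 4, with adjusted p-values up to 0.170. In the list of 18 receptors and partners none rose and 1, Nr0b2, fell on HFD, while 1 rose and 5 fell on SD.

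Of 23 tested other targets of CAR and PXR, 5 rose and 3 fell in HFD knockouts, and 3 rose and 3 fell in SD knockouts. The list's median log2 fold change was -0.0033 on HFD and 0.011 on SD, beside those near 0 for all genes given above. Cyp2c55, a P450 gene raised by CAR and PXR activators, had 86.7 and 38.4 CPM in HFD knockouts against 4.03 to 8.26 CPM in HFD controls, and 74.5 to 109 CPM in SD knockouts against 19.1 to 24.9 CPM in SD controls. It rose by 3.43 on HFD (SE 0.29, adjusted p = 1.54e-05) and by 2.01 on SD (SE 0.30, adjusted p = 0.00113), in all 19 alternatives of each. On HFD the value was 2.74 without HFD knockout 1. Abcc3, a bile acid exporter, fell on both diets, by 1.63 on HFD (adjusted p = 0.0197) and by 2.48 on SD (adjusted p = 0.000634). Its HFD call ended without HFD control 2 or 4 or either HFD knockout, with adjusted p-values of 0.0529 to 0.176. The members and this list each held genes that rose and genes that fell.

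Of 12 tested genes of P450 electron supply and haem, none rose and 1 fell on HFD, and none rose and 3 fell on SD. Cyb5b, a cytochrome b5 of the outer mitochondrial membrane, had 250 and 250 CPM in HFD knockouts against 343 to 467 CPM in HFD controls, and 225 to 258 CPM in SD knockouts against 396 to 443 CPM in SD controls. Its fall was 0.66 on HFD (adjusted p = 0.00988) and 0.77 on SD (adjusted p = 0.00138), and the HFD call ended without HFD knockout 1 (adjusted p = 0.111) or HFD knockout 2 (adjusted p = 0.0722). Por, the reductase that feeds electrons to these enzymes, had 259 and 265 CPM in HFD knockouts against 326 to 519 CPM in HFD controls and did not pass (adjusted p = 0.0760).

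Of 14 tested male-biased liver genes, none rose and 4 fell in HFD knockouts, and 3 rose and none fell in SD knockouts. Among all tested genes 1.04% rose and 1.66% fell on HFD, and 1.44% rose and 2.94% fell on SD. Of 10 tested female-biased genes outside the families, 1 rose and none fell on HFD, and none rose and 2 fell on SD. Their median log2 fold change was -0.19 on HFD and -0.78 on SD, and that of the male-biased genes -0.48 and 0.035. The 2 that fell on SD were Rtn4 (-1.45, adjusted p = 0.000784) and Prlr (-1.88, adjusted p = 0.00523), each in all 19 alternatives. Male-biased Mup20 rose on SD (1.91, adjusted p = 0.0154), and its call ended without SD control 3 or SD knockout 3. Slc22a26, the female-biased gene that rose on HFD, had 43.6 and 17.0 CPM in HFD knockouts against 3.09 to 6.33 CPM in HFD controls (log2 fold change 2.60, SE 0.34, adjusted p = 0.000722). That call held in all 19 alternatives, with a value of 1.78 without HFD knockout 1. Hsd3b5 fell by 2.76 on HFD (SE 0.64, adjusted p = 0.0295), and leaving out HFD control 4 or either HFD knockout ended its call (adjusted p 0.0613 to 0.328). Its value was -3.66 without HFD knockout 2 and -2.12 without HFD control 3. By diet, 1 male-biased gene rose and 9 fell in knockouts, HFD against SD, and 1 rose and 7 fell in controls. Of the female-biased genes 4 rose and none fell by diet in knockouts, and 2 rose and none fell in controls. Among all tested genes 14.9% rose and 11.7% fell by diet in knockouts, and 16.5% rose and 13.6% fell in controls. Of 12 tested pericentral genes, the zone where many P450 genes are expressed, none rose and 5 fell on HFD, and none rose and 4 fell on SD. Of 9 tested periportal genes 1 rose and 2 fell on HFD, and 1 rose and 5 fell on SD.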

How the data were processed

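Liver RNA was sequenced in 12 libraries. Per the submitters' processing notes, the tools were TopHat2 2.1.0, HTSeq and DESeq2 1.14.1, and the build was mm9. Whether counting used strand, and how reads with several matches were handled, is not given in the sources used here. Near-identical genes are therefore uncertain. Raw whole-number counts for each gene symbol were deposited by the authors. No label states that libraries are separate mice, and a p-value here reflects only spread among libraries, which may be technical.

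The main test was edgeR 4.0.16, two-sided quasi-likelihood F (R 4.3.3, limma 3.58.1), with TMM normalization, filterByExpr with a minimum count of 10 (12015 of 24062 genes kept), 4 group means and 1 spread over all 12 libraries. P-values were adjusted by Benjamini-Hochberg over all genes tested, with a threshold of 0.05. The SE was derived from the test statistic. Intervals and limits cover counting error only. Promoter windows came from RefSeq (GRCm38.p6, 10 of 10 members) and transcripts from GENCODE M21, whose longest protein-coding transcript was searched in 50-base windows against all other genes. Motifs were searched on both strands. Coordinates are those of GRCm38.p6, not of the counting.

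Members, lists and alternatives were chosen with earlier results of these data known. All 10 members are described, lists are given by their counts, and from each list genes were named among the 4 with the smallest p per knockout comparison. Outside this rule, Nr1i3 and Nr1i2 were named as the receptors of the members and Nr5a2 as a check of the labels. Same-numbered libraries did not deviate together, so the numbers were not used as a block. Other settings tried were RLE normalization, DESeq2 1.42.0, no filter, thinning to the smallest library, a replicate block, near-identical copies summed, only the groups compared, and each library left out. The procedure was also run on simulated counts with the same spread for every gene. That run does not bear on members with few counts or with a wide spread among controls, such as Cyp2b9.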

Additional observations from a re-analysis of the deposited data

How the results depend on the processing

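Of 316 log2 fold changes of members under settings that keep all libraries, 292 kept direction and side of the threshold, 8 lost and 14 gained their call, and 2 turned sign without a call. These 2 were Cyp2a4 in HFD against SD controls with copies summed (-0.13) and the Cyp3a25 difference between diets with a replicate block (-0.052). Members called in HFD knockouts numbered 2 of 8, but 6 of 9 without the filter on low counts. They numbered 1 with a replicate block, with near-identical copies summed, or with only the 2 groups compared. All genes called there numbered 518 of 17849 without the filter and 127 of 12372 with only the 2 groups compared, which estimates the spread from fewer libraries. Averaged over diets, 5 of 9 members and 1165 of 17849 genes passed without the filter, against 3 of 8 and 1005 of 12015 with it. The genes whose knockout effect was called different between diets numbered 33 with DESeq2, 17 without the filter and 1 with a replicate block. The cause was not tested. The replicate numbers do not pair libraries: same-numbered deviations correlated at -0.01 to 0.05 on SD and at 0.0089 and 0.12 on HFD. On SD, 4 of 6 libraries correlated best with their own number, a hint from the data and not the design. Under the block only Cyp2a4 in HFD knockouts lost and Cyp2b13 by diet in controls gained a call among members.

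Leaving out 1 library at a time, of 576 values 527 kept direction and side of the threshold, 29 lost and 7 gained a call, and 13 turned sign. Members called ranged from 1 to 4 in HFD knockouts, 1 to 2 in SD knockouts, 1 to 3 averaged over diets and 2 to 4 by diet in knockouts. All genes called ranged from 85 to 602 in HFD knockouts, 220 to 655 in SD knockouts, 660 to 1222 averaged over diets, 0 to 4 for the difference of the effects and 1978 to 3249 by diet in knockouts. In HFD knockouts the log2 fold change ranged from -0.61 to 4.50 for Cyp2a4 and from -0.26 to 0.26 for Nr1i3. In SD knockouts it ranged from -0.36 to 1.98 for Cyp2b9 and from -0.46 to 0.037 for Cyp3a11. By diet it ranged from -1.14 to 4.27 for Cyp2a4 and from -0.0026 to 1.55 for Cyp2b10 in knockouts, and from -0.64 to 0.76 for Cyp2b10 in controls. The difference of the effects ranged from -2.81 to 2.60 for Cyp2a4, -0.10 to 2.23 for Cyp2b9, -0.34 to 1.71 for Cyp2b10 and -0.23 to 0.33 for Cyp3a25. With 1 HFD knockout left out, the lone library is assumed to vary like the other groups. Depth limits Cyp2b13 and Cyp2a4 on SD, where groups held 2 to 19 counts, and no statement is made on Cyp3a41a and Cyp3a44 beyond their counts.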
